A study of Mus musculus with 30 samples.

Results

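The proteasome genes were taken as every gene row whose symbol starts with Psma to Psmg followed by a digit, which gave 50 of the 25611 gene rows. They hold the 7 alpha and 7 constitutive beta subunits of the 20S core, the 3 inducible beta subunits of the immunoproteasome, 6 ATPases and 11 other subunits of the 19S cap, 4 activators, 1 inhibitor, and 7 assembly chaperones (3 for the 19S cap and 4 for the 20S core). The remaining 4 are the tissue-restricted subunits Psma8 and Psmb11, the Psme2 copy Psme2b, and Psmc3ip, which matches the symbol rule but is a meiotic recombination factor and not a subunit. RNA was sequenced from mouse bone marrow dendritic cells grown in FLT3L at 200 ng/ml for 6 to 7 days. Cells were labelled Rubcn KO (KO) or wild type (WT). Rubcn encodes Rubicon, a regulator of autophagy and of LC3-associated phagocytosis. Each genotype was left untreated or was incubated for 30 min or 4 h, either with ovalbumin protein (OVA) or with Jurkat cells that had been made apoptotic. Jurkat is a human leukaemia line of T-cell origin. The 10 groups held 3 libraries each, 30 in all. The labels give no allele for the knockout and no strain, age or sex, and do not say whether the 3 libraries of a group came from separate mice, so p-values measure the spread between these libraries, which may be technical.

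The proteasome degrades ubiquitin-tagged proteins. Its barrel-shaped 20S core is built of stacked rings of alpha and beta subunits, and 3 of the beta subunits carry the proteolytic sites: Psmb6 (beta1), Psmb7 (beta2) and Psmb5 (beta5). In immune cells, and in other cells exposed to interferon, newly made cores can take up Psmb9 (beta1i), Psmb10 (beta2i) and Psmb8 (beta5i) in their place, which changes the peptides offered to MHC class I. The 19S cap recognises and unfolds ubiquitin-tagged substrates, and the PA28 activator, made of Psme1 and Psme2, opens the core without ubiquitin recognition and is likewise interferon-inducible.

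Total counts ranged from 9.73 M in 1 KO library (OVA, 30 min) to 51.6 M, with a median of 44.9 M. The next lowest library had 38.7 M. One library, KO Jurkat 4 h replicate 2, stood apart from its group: chi-square per degree of freedom was 141 and 146 against the other replicates, 5.31 between those, and at most 18 in any other pair of replicates. The 45S ribosomal RNA precursor Rn45s took 3.9% of its counts, against 0.0949% to 0.384% in the other 29 libraries, and without that gene the values were still 22.1 and 21.3. Rubcn RNA was lower in KO cells in all 5 conditions, by a log2 fold change of -0.44 ± 0.0472 (SE) in untreated cells (adjusted p = 1.69e-07). It stayed detectable, at 70.4 to 75.8 CPM (counts scaled to the depth of each library) in untreated KO libraries against 95.6 to 105 in WT. Whether the counted exons lie inside the deleted part is not given in the sources used here. The 8 dendritic cell markers summed to between 22000 and 40400 CPM in every library, and none stood at 0. In WT the sum went from 22000 to 24800 CPM untreated to 38400 to 40400 after 4 h of Jurkat cells. There 5 of the 8 were higher and 3 lower, in WT and in KO alike. Monocyte or macrophage markers were also present, at 3030 to 3240 CPM in untreated WT libraries. Of 25 tested T-lineage markers, 21 were higher and 4 lower after 4 h of Jurkat cells in WT, and 17 higher and 5 lower in KO. The 15 of the list's 27 genes that were under 1 CPM in untreated cells summed to 3.51 to 3.64 CPM in untreated WT libraries, 40.3 to 42.4 at 30 min and 88.1 to 117 at 4 h. In KO cells the same sum was 19.7 to 29.8 at 30 min and 65.4 to 84.3 at 4 h. Among the defining markers, Cd3e was at 6.09 ± 0.573 CPM (SD, n = 3) and Cd3d at 0.0387 ± 0.0186 after 4 h in WT cells. The other defining markers Cd3g, Lck and Bcl11b were already higher at 30 min in WT, by log2 1.35, 2.53 and 6.90. In KO cells Lck (1.81) and Bcl11b (4.06) were higher at 30 min and Cd3g was not called. How reads of the human cells were treated in counting is not given, so reads from human proteasome genes may be counted in every Jurkat group, and their part in the results was not tested. These are bulk libraries, in which fewer cells of a type and less RNA per cell cannot be told apart.

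Promoter windows are shown for the inducible subunits of the beta5 and beta1 positions beside the constitutive subunits that they replace, since the pairs are compared in what follows. Each is the 250 bases before the RefSeq start on GRCm38.p6, read 5′ to 3′ on the gene's strand. Psmb8 lies at chr17:34197945-34198194 (plus strand) and Psmb9 at chr17:34187331-34187580 (minus strand), both in the MHC region, with Tap1 between the 2 genes. Psmb5 lies at chr14:54617996-54618245 (minus strand) and Psmb6 at chr11:70525107-70525356 (plus strand). Capitals mark a match to the GAS letters TTCNNNGAA in Psmb8, to the antioxidant-response letters TGACNNNGC in Psmb5 and Psmb6, and to CCAAT, read as ATTGG, in Psmb9.
Psmb8: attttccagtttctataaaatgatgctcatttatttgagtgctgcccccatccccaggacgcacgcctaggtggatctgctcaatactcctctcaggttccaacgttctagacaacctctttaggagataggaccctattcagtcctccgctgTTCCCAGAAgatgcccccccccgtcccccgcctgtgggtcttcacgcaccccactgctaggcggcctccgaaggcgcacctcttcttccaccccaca
Psmb5: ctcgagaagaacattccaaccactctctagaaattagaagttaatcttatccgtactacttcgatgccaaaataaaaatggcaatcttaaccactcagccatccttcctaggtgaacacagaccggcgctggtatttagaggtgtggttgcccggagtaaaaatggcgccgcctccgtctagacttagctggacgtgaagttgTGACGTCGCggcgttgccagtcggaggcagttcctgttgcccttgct
Psmb9: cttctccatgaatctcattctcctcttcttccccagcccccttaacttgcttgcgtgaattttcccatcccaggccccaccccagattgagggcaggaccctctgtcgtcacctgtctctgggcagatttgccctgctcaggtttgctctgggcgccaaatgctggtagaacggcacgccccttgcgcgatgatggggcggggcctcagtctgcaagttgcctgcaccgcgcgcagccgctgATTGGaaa
Psmb6: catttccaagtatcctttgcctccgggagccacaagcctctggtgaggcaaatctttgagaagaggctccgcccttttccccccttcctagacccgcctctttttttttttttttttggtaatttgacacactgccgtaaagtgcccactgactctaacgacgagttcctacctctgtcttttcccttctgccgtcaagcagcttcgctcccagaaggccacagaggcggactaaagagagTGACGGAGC
The deposited mm10 intervals end Psmb9 at position 34187330 and start Tap1 at 34187556, so the shown Psmb9 window runs into the first bases of Tap1, a transporter that carries peptides into the endoplasmic reticulum. Exons of Tap1 on the opposite strand cover 5.79% of the annotated Psmb9 exon length, and since the use of strand is not given, reads from the shared bases cannot be told apart. The same limit holds for Psmb7, with 11.8% shared with Nek6 on the opposite strand. It also holds for Psmb5, with 12.1% shared with Mir686 on the same strand.

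Windows were found for 42 of the 50 genes, and both strands were searched. The GAS letters stood in 2 of 42 (Psmb8 at position -97 and the 20S chaperone Psmg1) against 7.02% of 32851 windows of the same length. The antioxidant-response letters stood in 5 of 42 (Psmb5 at -47, Psmb6 at -9, Psmc6, Psmd12 and Psmd9) against 10.2%. The interferon-response letters (GAAA, any 2 bases, GAAA) stood in 3 of 42 (Psmb3, Psmd4 and Psmd9) against 2.98%. The NF-kB-like letters GGGNNTTCC stood in 1 of 42 (Psmd11) against 4.98%, and CCAAT stood in 15 of 42 against 33.8%. No match overlapped another in these windows. A match is a description of letters and not a binding site.

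In untreated WT cells the PA28 genes Psme1 and Psme2 and the immunoproteasome gene Psmb8 had the 3 highest levels of the family. On the per-length scale (CPM per kb of the principal transcript), Psme1 had the highest level of all, at 313 ± 15.5 (SD, n = 3), and Psme2 and Psmb8 followed at 239 ± 4.49 and 239 ± 9.96, which do not differ beyond their spread. Psmb9 stood at 131 ± 4.92 and Psmb10 at 82.3 ± 3.26 CPM per kb, the latter below the medians of the alpha (99.4) and constitutive beta subunits (97.7). On this scale Psmb5, the subunit that Psmb8 replaces, had the lowest level of the 7 constitutive beta subunits, at 38.7 ± 1.26. Counts are per gene, so levels and ranks per kb depend on the transcript chosen for the length. All annotated exons together hold 3660 bases for Psmb9, 3421 for Psmb7, 2209 for Psme1 and 899 for Psmb5. Levels over those lengths are not given here, and the ranks may differ on them. Psmb6 stood at 115 ± 3.99 and Psmb7 at 89.1 ± 2.75.

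Alpha subunits ran from Psma3 at 25 CPM per kb to Psma7 at 167, and the constitutive beta subunits rose from Psmb5 to Psmb4 at 139. The 19S ATPases, which thread the substrate into the core, kept within a narrow range, from Psmc6 at 34.4 to Psmc3 at 80.1. The other 19S subunits ranged from Psmd11 at 19.9 to Psmd8 at 118. Factors that act on assembly rather than in the finished particle were low, with the 19S chaperones at 7.42 (Psmd9) to 15.2 (Psmd10) and the 20S chaperones at 12.6 (Psmg1) to 33.9 (Psmg4). The inhibitor Psmf1 stood at 9.13 CPM per kb, and Psme4, the large activator PA200, at 19. The testis subunit Psma8 stood at 0.311, and the thymus subunit Psmb11 had 10 counts in all 30 libraries together, with 24 libraries at 0. Psmb11 was the only one of the 50 genes that did not pass the filter on low counts, and 49 were tested among 14808 genes.

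**Figure D1:**
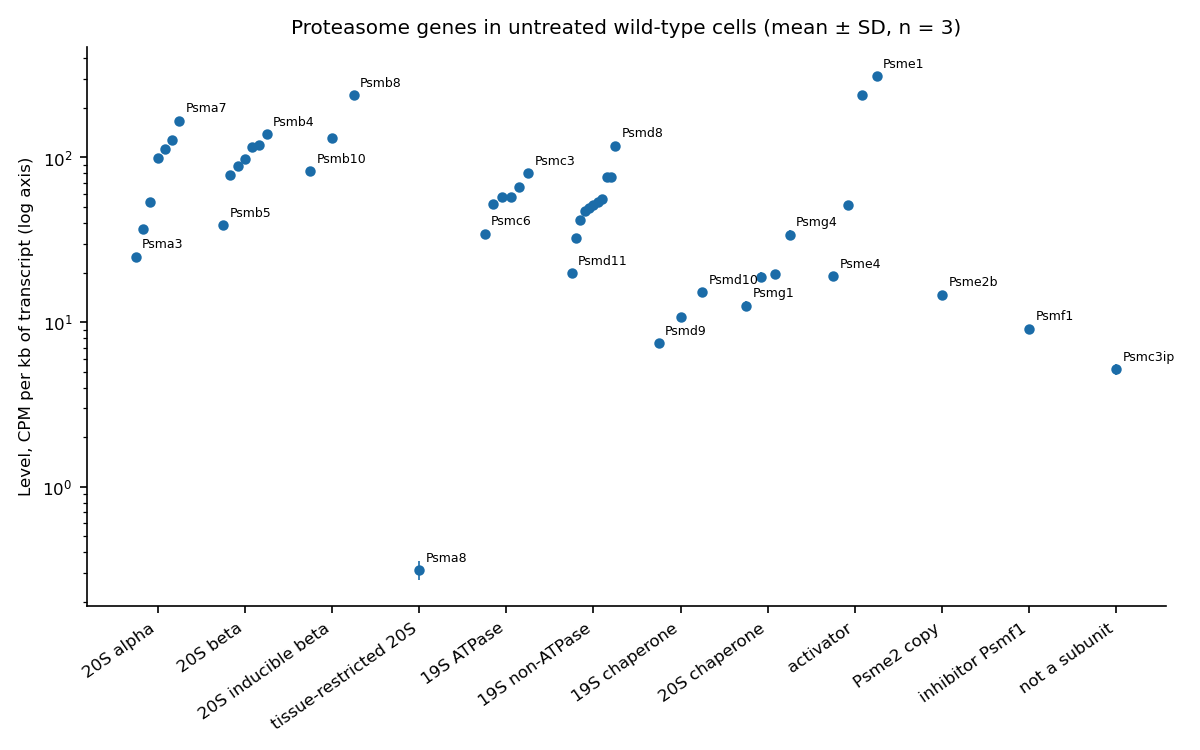
Level of each gene in untreated WT cells, in CPM per kb of transcript on a log axis, by role (mean ± SD over 3 libraries; Psmb11, at nearly 0, is left out, and the lowest and highest of each role are named). Psme1, Psme2 and Psmb8 stand at the top, at 313, 239 and 239, while chaperones and Psmf1 lie between 7.42 and 33.9.

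After 4 h with apoptotic Jurkat cells nearly the whole family changed in WT cells. Relative to untreated WT cells, 43 of 49 were higher and 3 lower, against 38.9% and 40.6% of all genes tested (edgeR quasi-likelihood F test, adjusted p under 0.05 over all genes). With scaling to total counts in place of trimmed mean of M values (TMM) factors the split was 29 higher and 10 lower. The share of all genes called with total counts is not given, here or below, so such counts show only how the members' calls moved. The members' median log2 fold change was 0.57 and that of all genes -0.02 with TMM factors, and 0.17 and -0.42 with total counts, since the TMM factors of the 4 h Jurkat libraries were 0.765 to 0.842 and those of the others 1.03 to 1.07. A change of scaling moves all genes by nearly the same amount. The gap between the 2 medians is therefore nearly fixed, and its likeness on both scales tests nothing. In KO cells 41 of 49 were higher and 5 lower, against 37.5% and 41% of all genes, and 28 higher and 12 lower with total counts, with a median of 0.51. As a share of all counts, which uses no TMM factor, the family rose from 0.524% ± 0.0116 (SD, n = 3) to 0.672% ± 0.0229 in WT libraries, and from 0.516% ± 0.0109 to 0.64% ± 0.0109 in KO libraries. The libraries of the groups compared did not overlap in this share.

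The PA28 activator gene Psme2 moved most. Its level in the 3 untreated WT libraries was 225, 234 and 230 CPM, and after 4 h with Jurkat cells it was 754, 803 and 805. The groups lie far apart, and the log2 fold change was 1.78 ± 0.0437 (SE, a 3.42-fold rise, adjusted p = 1.68e-24). Its partner Psme1 rose less, from 328, 360 and 355 CPM to 679, 713 and 731 (log2 1.03 ± 0.0418, adjusted p = 2.36e-19). The Psme2 copy Psme2b rose by 1.58 ± 0.0549, but reads of near-identical copies may be split between the 2 genes, so its value is uncertain. Psme4 rose by 0.72 ± 0.0433, and Psme3, the nuclear activator PA28 gamma, rose by 0.40 ± 0.0309. With total counts Psme3 was not called.

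All 3 immunoproteasome subunits rose, but by different amounts. Psmb10 went from 103, 111 and 110 CPM in untreated WT libraries to 246, 269 and 283 (log2 1.30 ± 0.0518, adjusted p = 1.33e-19). Psmb9 went from 170, 184 and 177 CPM to 335, 368 and 357 (log2 0.998 ± 0.0452, adjusted p = 3.21e-18). Psmb8 went from 372, 404 and 393 CPM to 552, 572 and 593 (log2 0.56 ± 0.0394, adjusted p = 1.46e-13). The treated libraries lay above the untreated ones without overlap for each gene, and Psmb8, the most abundant of the 3 at the start, rose least. With total counts all 3 remained called, at 0.90, 0.59 and 0.15.

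The constitutive catalytic subunits that they replace rose as well. Psmb6 went from 92.1, 95.2 and 88.8 CPM to 181, 185 and 196 (log2 1.02 ± 0.038, adjusted p = 2.62e-20), about as much as its inducible counterpart Psmb9. Psmb7 went from 104, 106 and 99.9 CPM to 162, 170 and 169 (log2 0.69 ± 0.0404, adjusted p = 1.38e-15). Psmb5 went from 34.8, 35.9 and 33.7 CPM to 49, 47.5 and 52.8 (log2 0.52 ± 0.0519, adjusted p = 3.35e-10), about as much as Psmb8. Each constitutive gene was thus higher in every treated library than in any untreated one, although with total counts Psmb5 was no longer called (0.11, adjusted p = 0.0543).

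**Figure D2:**
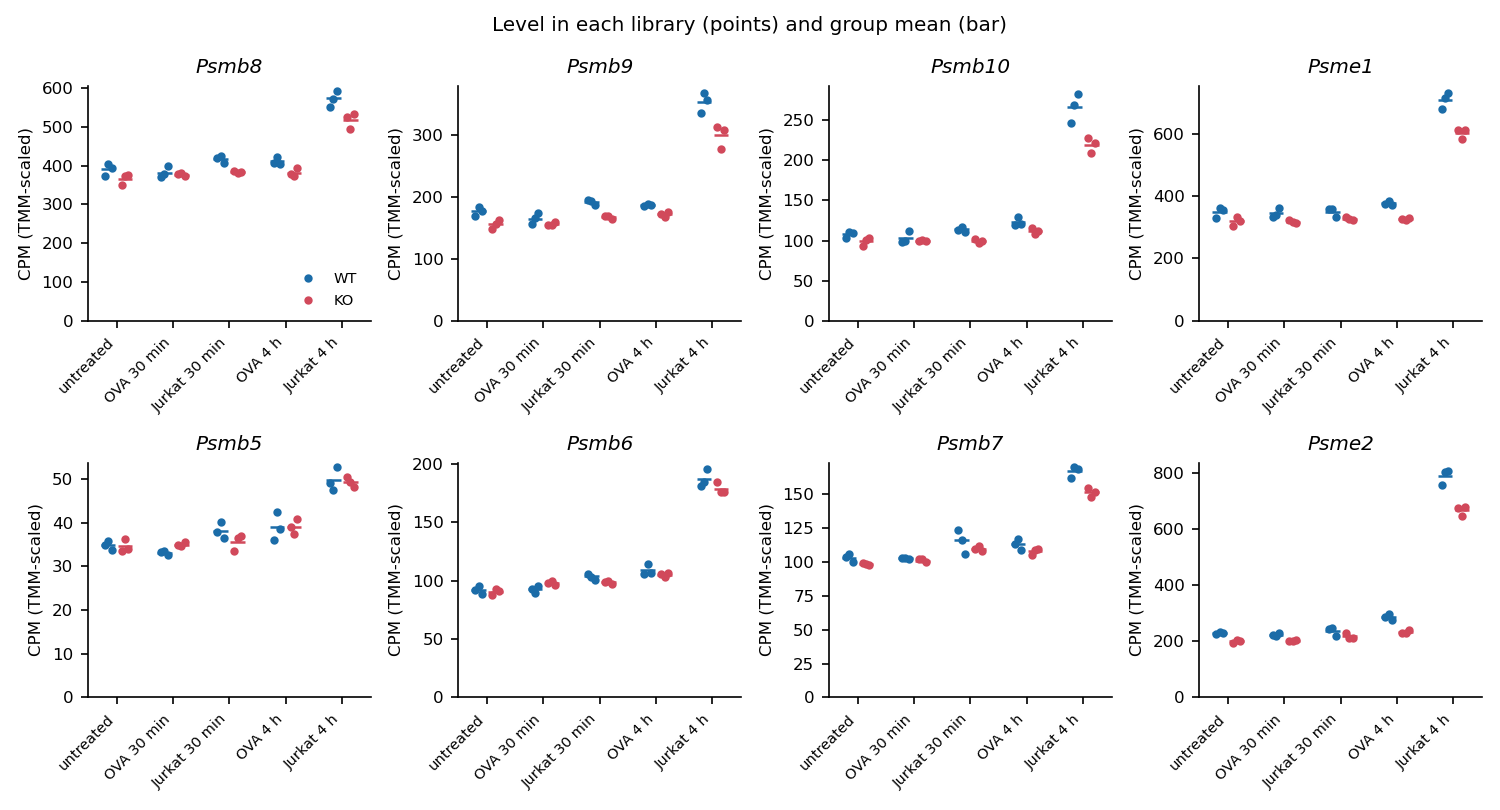
Level of the inducible subunits, their constitutive counterparts and the PA28 genes in each library, in TMM-scaled CPM (points: 3 libraries per group; bars: group means; blue WT, red KO). On this scale all 8 genes are highest after 4 h with apoptotic Jurkat cells (with total counts Psmb5 was at -0.02 in log2 against 4 h of OVA), where Psme2 reaches 754 to 805 CPM in WT and 644 to 678 in KO.

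Structural subunits of the core rose unevenly. All 7 alpha subunits, which form the outer gate rings, were higher in WT cells, from Psma1 at 0.22 ± 0.042 to Psma6 at 1.31 ± 0.0461 (adjusted p = 6.95e-21), with a median of 0.93, though Psma1 turned to lower with total counts. Psma6 stood at 117, 120 and 114 CPM in untreated WT libraries and at 291, 279 and 303 after Jurkat cells. The 7 constitutive beta subunits had a median of 0.69 and included Psmb1, the least changed of them, at 0.10 ± 0.0446 (adjusted p = 0.0489), which also turned to lower with total counts. Psmb1 stood at 169, 179 and 167 CPM and then at 176, 184 and 191, so its groups overlapped.

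In the 19S cap all 6 ATPases were higher in both genotypes, from Psmc6 (0.36 in WT) to Psmc5 (0.87), though with total counts Psmc1, Psmc3 and Psmc6 were not called in either genotype, and Psmc6 in both and Psmc3 in KO were below 0. All 11 other subunits were higher too, from Psmd13 (0.23) to the lid scaffold Psmd11 (0.94 ± 0.0308, adjusted p = 1.35e-21), but with total counts Psmd13 was called lower in both genotypes, Psmd3 was called in neither and was below 0 in WT, and Psmd4 was not called in KO. Psmd11 stood at 56.5, 56.9 and 56.3 CPM in untreated WT libraries and at 108, 106 and 110 after Jurkat cells. The inhibitor Psmf1 rose by 0.39 ± 0.0388 in WT, and was not called with total counts there. With total counts the log2 fold change fell below 0 for 9 of the genes called higher in WT and for 8 of those in KO. Of the WT genes 4 were then called lower: Psma1, Psmb1, Psmd9 and Psmd13, named here after their values were seen. In KO cells 5 did: Psma1, Psmb3, Psmd9, Psmd13 and Psmf1, also named after their values were seen.

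The genes that fell were assembly chaperones. Psmg2, which pairs with Psmg1 to bring alpha subunits into a ring, stood at 21.1, 21.5 and 19.5 CPM in untreated WT libraries and at 14.7, 12.9 and 15.3 after Jurkat cells (log2 -0.53 ± 0.0675, adjusted p = 3.27e-08). Psmg1 fell from 12.2, 13.7 and 13.5 CPM to 10.2, 9.09 and 9.1 (log2 -0.47 ± 0.0719, adjusted p = 7.76e-07). Psmd5, a chaperone of the 19S base, fell from 46.7, 48.5 and 46.6 CPM to 37.4, 38.7 and 35.4 (log2 -0.35 ± 0.048, adjusted p = 1.67e-07). In each case every treated library lay below every untreated one. All 3 were also lower in KO cells, at -0.46, -0.45 and -0.39 in the same order, and with total counts in both genotypes. Not all chaperones fell: the 19S chaperones Psmd10, also known as gankyrin, rose by 0.72 ± 0.0469 and Psmd9 by 0.17 ± 0.0505, which turned to lower with total counts. Psmg3 (-0.12, adjusted p = 0.0638), Psmg4 (0.05, adjusted p = 0.453) and Psmc3ip (-0.21, adjusted p = 0.0518) were not called in WT. In KO cells Psmg3 (-0.14) and Psmc3ip (-0.36) were called lower, and Psmb1, Psmg4 and Psma8 were not called.

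Across the 49 genes the response in KO cells followed that in WT cells, with a Pearson correlation of 0.97 between the log2 fold changes. The 2 responses use different libraries, but genes are not independent replicates. In both genotypes 44 of the 49 were called in the same direction, 2 were called in WT alone, 2 in KO alone, and none in opposite directions. Of all genes 38.9% were called higher and 40.6% lower in WT, and 37.5% and 41% in KO. The correlation over all genes and their share called in both genotypes are not given here. Whether the likeness is particular to the proteasome genes was therefore not tested.

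**Figure D3:**
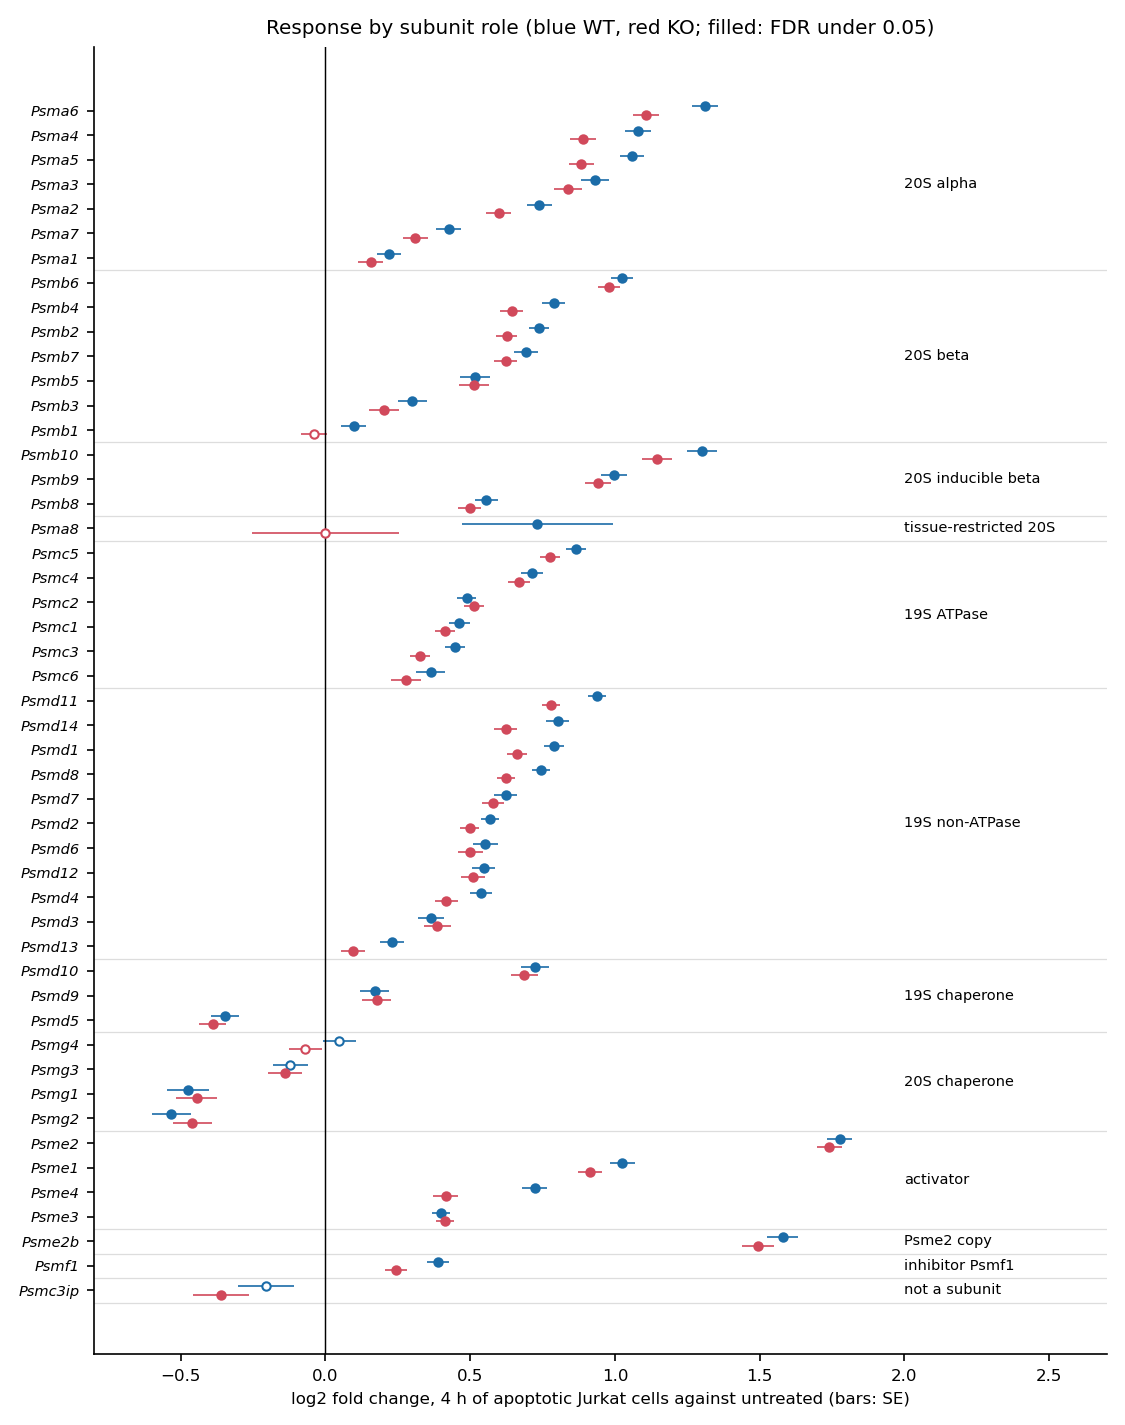
Log2 fold change after 4 h of apoptotic Jurkat cells against untreated cells for each tested gene, by role (blue WT, red KO; bars: SE; filled points: adjusted p under 0.05, TMM factors; with total counts 9 of the rises called in WT and 8 of those in KO fell below 0, and 4 and 5 of them were called lower). Psme2 lies farthest to the right at 1.78 in WT and 1.74 in KO, and Psmg2, Psmg1 and Psmd5 lie to the left of 0.

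The ratio of each inducible gene to its constitutive counterpart, taken per transcript length within each library, does not depend on the scaling between libraries. Its size and sign depend on the transcript lengths used, whereas its differences between groups do not. It compares RNA and is not a proportion of assembled particles. The log2 ratio of Psmb8 to Psmb5 was 2.56, 2.63 and 2.69 in untreated WT libraries and 2.64, 2.73 and 2.63 after 4 h with Jurkat cells. Means were 2.63 ± 0.0629 and 2.67 ± 0.0563 (SD, n = 3), a 6.18-fold and a 6.36-fold excess of Psmb8, and the difference of 0.04 was smaller than the spread (exact permutation test, two-sided, p = 0.5). The log2 ratio of Psmb9 to Psmb6 was likewise 0.18 ± 0.0525 before and 0.16 ± 0.0681 after (exact p = 0.8).

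Of the 3 pairs, Psmb10 to Psmb7 was the one whose ratio moved without overlap with Jurkat cells at 4 h. Its log2 ratio was -0.19, -0.11 and -0.04 in untreated WT libraries and 0.42, 0.49 and 0.57 at 4 h, and in KO cells it went from -0.28, -0.14 and -0.10 to 0.38, 0.32 and 0.36. The differences were 0.61 in WT and 0.53 in KO without overlap, each with the smallest p that 3 against 3 libraries allow (exact p = 0.1, adjusted p = 0.244 over 39 comparisons of the 3 ratios). This exact test of 3 against 3 libraries cannot pass 0.05. Other treatment groups also lay apart from untreated libraries without overlap, all lower and each at the same p: Psmb9 to Psmb6 after 4 h of OVA in WT (-0.16) and KO (-0.08) and after 30 min of OVA in KO (-0.11), Psmb8 to Psmb5 after 4 h of OVA in KO (-0.12), and Psmb10 to Psmb7 after 30 min of Jurkat cells in KO (-0.15).

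Between genotypes the ratio of Psmb9 to Psmb6 was lower in KO than in WT cells in every condition, without overlap between libraries. The differences in log2 were -0.16 untreated, -0.17 and -0.13 after 30 min of OVA and Jurkat cells, and -0.08 and -0.17 after 4 h of each (exact p = 0.1 each, adjusted p = 0.244). In untreated cells the WT libraries stood at 0.13, 0.19 and 0.23 and the KO libraries at -0.01, 0 and 0.07. For Psmb10 to Psmb7 the KO libraries lay below without overlap at 4 h of Jurkat cells alone (-0.14). For Psmb8 to Psmb5 they did so after OVA at 30 min (-0.10) and at 4 h (-0.12) and after Jurkat cells at 4 h (-0.14).

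**Figure D4:**
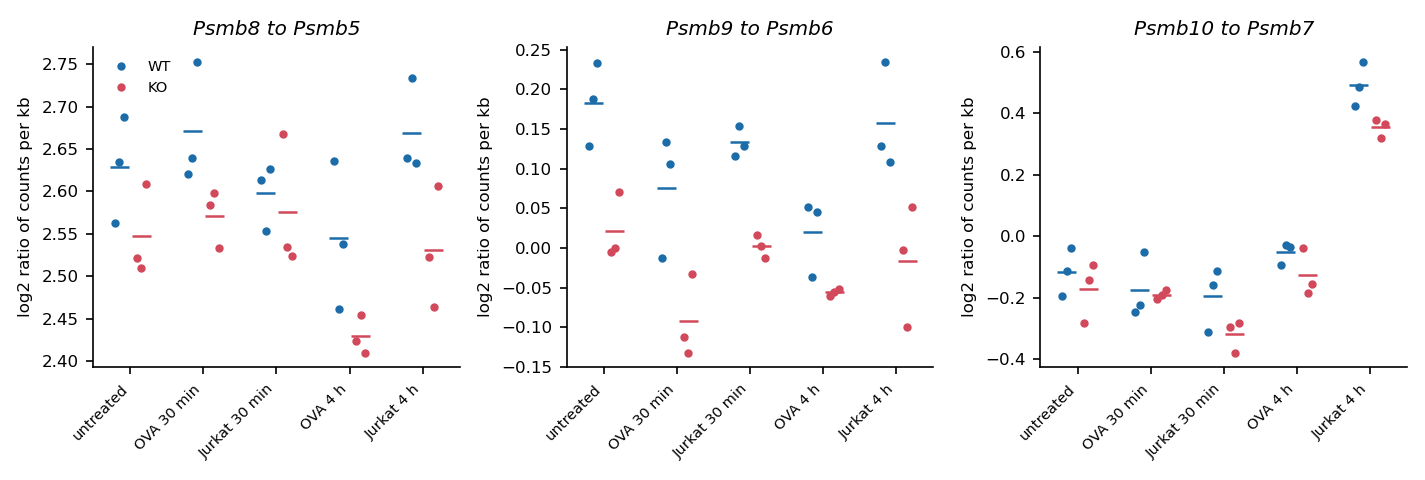
Log2 ratio of counts per kb of each inducible subunit to its constitutive counterpart in each library (points: 3 libraries per group; bars: means; blue WT, red KO; the vertical axes differ and do not start at 0). Psmb10 to Psmb7 rises to between 0.32 and 0.57 after 4 h of Jurkat cells in both genotypes, and Psmb9 to Psmb6 is lower in KO in all 5 conditions.

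Genes around the proteasome moved in the same samples. Of 30 genes for partners and regulators of the proteasome (ubiquitin genes, shuttle factors, deubiquitinases and transcription factors of proteasome genes), 19 were higher and 4 lower after 4 h of Jurkat cells in WT, with a median of 0.26, and 19 and 5 in KO. Nfe2l2, which encodes the oxidative stress factor NRF2, rose by 1.47 ± 0.0463. Zfand5, a proteasome-binding zinc finger protein, rose by 1.68 ± 0.0582, and Nfe2l1, which encodes the factor that restores proteasome gene expression when the proteasome is inhibited, rose by 0.93 ± 0.0344.

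All 30 interferon-response genes on the list were higher after 4 h of Jurkat cells, with a median log2 fold change of 3.81 in WT and 4.36 in KO. Nlrc5, the MHC class I transactivator, rose by 3.10 ± 0.106 in WT, and Tap1, the neighbour of Psmb9, by 1.76 ± 0.0464. Of 10 genes for cytosolic and endoplasmic reticulum peptidases and peptide-loading chaperones, 9 were higher in WT and 8 in KO and none lower, led in WT by Calr (0.89 ± 0.0305) and Npepps (1.09 ± 0.0405). All 10 mature dendritic cell markers were higher too, and their sum went from 654 to 697 CPM in untreated WT libraries to 8530 to 9250 at 4 h. Markers of conventional dendritic cells went mostly the other way in WT, with 2 higher and 5 lower of 8 for type 1 (median -0.84) and 2 higher and 6 lower of 8 for type 2 (median -1.23). The relation of the proteasome genes to these lists was not tested.

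By 30 min with Jurkat cells small rises were measured in part of the family. In WT cells 19 of 49 were higher and 2 lower, against 14.2% and 14.5% of all genes, with a median log2 fold change of 0.10 against 0.01. Psma6 stood at 155, 152 and 138 CPM, above the untreated libraries at 114 to 120 (log2 0.34 ± 0.0458, adjusted p = 2.22e-06). Psmb4 rose by 0.18 ± 0.04, Psmb6 by 0.17 ± 0.038, Psmd1 by 0.16 ± 0.0345 and Psmc5 by 0.16 ± 0.0345, while Psmd5 (-0.13 ± 0.0467) and Psme2b (-0.16 ± 0.0583) fell. Psmb9 was called at 0.12 ± 0.045 (adjusted p = 0.0465), a call lost without any 1 of 5 of the 6 libraries, and Psmb8, Psmb10, Psme1 and Psme2 were not called. The replicate number was also fitted as a block shared by all 30 libraries. With it Psme2b was no longer called (adjusted p = 0.0503), and Psmb8 (0.10, adjusted p = 0.0445) and Psmb5 (0.13, adjusted p = 0.0464) were. Libraries of this comparison correlated by replicate number, but those of most other pairs of groups did not. Without WT Jurkat 30 min replicate 1, 10 were called in place of 21, without untreated WT replicate 3, 12, and with the compared libraries alone 8.

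In KO cells 10 were higher and none lower at 30 min, against 8.72% and 8.26% of all genes, again led by Psma6 (0.28 ± 0.0457, adjusted p = 6.91e-05) with Psmc1, Psmb7 and Psmd14 behind it. This count rested in part on KO Jurkat 30 min replicate 1, without which 3 were called. That library also had a higher sum of the interferon list, 5810 CPM against 4590 and 4710 in the other two, and of mature dendritic cell markers, 976 CPM against 585 and 640. Called counts were 6, 5 and 5 without untreated KO replicate 2, untreated KO replicate 3 and KO Jurkat 30 min replicate 2. The T-lineage sums given above were already raised at this time. Among the partner genes Zfand5 rose by 0.61 ± 0.0575 in WT and by 0.45 ± 0.0575 in KO (adjusted p = 3.97e-09 and 2.11e-06).

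OVA, a soluble protein antigen, changed little at 30 min. Psme4 alone was called in WT cells (1 higher and 0 lower, against 5.51% and 5.15% of all genes), at 137, 139 and 131 CPM against 127, 123 and 119 in untreated cells (log2 0.14 ± 0.0432, adjusted p = 0.0371), and this call was lost without WT untreated replicate 2 or 3 or WT OVA 30 min replicate 1 or 2. In KO cells none was called by edgeR, against 1.88% higher and 1.88% lower of all genes. An unadjusted p under 0.05 was reached by 6 of 49 members and by 2515 of all 14808 genes. DESeq2 called 1 member, Psmc1 at 0.11.

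At 4 h of OVA the WT cells showed a broad but small rise. Of 49 genes 20 were higher and 0 lower, against 11.9% and 11.7% of all genes, with a median of 0.10 against 0.00. Psme2 led again, at 286, 297 and 276 CPM against 225 to 234 in untreated libraries (log2 0.32 ± 0.0427, a 1.25-fold rise, adjusted p = 1.84e-06). Psma6 (0.27 ± 0.0458), Psmd10 (0.25 ± 0.0469), Psmb6 (0.24 ± 0.0379) and Psmb3 (0.21 ± 0.0502) followed. Psmb10 was higher by 0.19 ± 0.0515 and Psmb5 by 0.17 ± 0.0517, whereas Psmb8 (0.08) and Psmb9 (0.08) were not called. Of the 30 interferon genes 29 were higher in the same comparison, with a median of 0.82. Without untreated WT replicate 3 or WT OVA 4 h replicate 2, 11 proteasome genes were called, and 13 without WT OVA 4 h replicate 1.

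In KO cells OVA at 4 h gave 9 higher and 1 lower, against 5.94% and 5.69% of all genes. Psmb6 (0.22 ± 0.038, adjusted p = 0.000247) and Psme2 (0.22 ± 0.0428, adjusted p = 0.000626) were called whichever library was left out. Psmc2, Psmb5 and Psmb10 were also higher, and Psmf1 was lower at -0.12 ± 0.0389, a call lost with total counts, without the filter, in the compared libraries alone, with DESeq2 and without any 1 of the 6 libraries. The count was 3, 5 and 4 without untreated KO replicate 1, 2 and 3, and 3, 5 and 2 without KO OVA 4 h replicate 1, 2 and 3. OVA and Jurkat comparisons share their untreated libraries, so their values are set side by side and their likeness is not a result.

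Jurkat cells and OVA were also compared directly at each time, with the genotypes averaged. At 30 min 25 were higher and 1 lower with Jurkat cells, against 15.5% and 14.4% of all genes. The largest called difference was Psma6 at 0.24 ± 0.0326, and the 1 lower gene was Psme4 at -0.11 ± 0.0308 (adjusted p = 0.00784). Without WT Jurkat 30 min replicate 1 the count was 15, and without KO Jurkat 30 min replicate 2 it was 17. At 4 h 42 were higher and 6 lower, against 39.4% and 43.2% of all genes, or 27 higher and 13 lower with total counts, which gave all genes a median of -0.40, put 10 of the genes called higher below 0 and called 6 of those lower: Psma1, Psma7, Psmb3, Psmc6, Psmd9 and Psmd13. Psme2 differed by 1.49 ± 0.0306 (adjusted p = 1.06e-26). The 6 lower were Psmg1, Psmg2, Psmg3, Psmg4, Psmd5 and Psmc3ip. Psmg4 (-0.09, adjusted p = 0.0388) was not called with RLE factors, in the compared libraries alone or by DESeq2, nor without any 1 of 5 of the 12 libraries. Psmb1 was the 1 gene not called, at 0.00 ± 0.0315.

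KO and WT cells were compared within each condition. In untreated cells 0 were higher and 3 lower in KO, against 6% and 3.97% of all genes, so the share was near the background. The 3 were Psme2, Psme2b and Psmb9. Psme2 stood at 193, 204 and 200 CPM in KO against 225, 234 and 230 in WT, without overlap (log2 -0.21 ± 0.0427, adjusted p = 0.0014). Psmb9 stood at 148, 157 and 163 CPM against 170, 184 and 177 (log2 -0.18 ± 0.0451, adjusted p = 0.0078), also without overlap, although its call was lost without untreated WT replicate 2 or untreated KO replicate 1. Psme2b was lower by -0.34 ± 0.059. Psmb8 and Psmb10, at -0.09 and -0.12, were not called, and neither was any of the 19S genes.

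After 30 min of OVA 1 was higher and 2 were lower in KO, against 6.25% and 6.13%. Psme2b (-0.38 ± 0.0634) and Psme2 (-0.14 ± 0.0432, adjusted p = 0.0255) were lower and Psmg1 was higher (0.24 ± 0.0709, adjusted p = 0.0248). The Psme2 call was lost with total counts and without 5 of the 6 libraries. The Psmg1 call was lost without 3 of the 6 libraries, 2 of which are KO OVA 30 min replicate 2 and the shallow KO OVA 30 min replicate 3. After 30 min of Jurkat cells 0 were higher and 4 lower, against 5.58% and 3.67%. These were Psmb9, Psmb10, Psmb8 and Psmg4, so that all 3 immunoproteasome subunits were called here. Psmb9 stood at 169, 169 and 164 CPM in KO against 195, 194 and 187 in WT (log2 -0.20 ± 0.045, adjusted p = 0.00396). Psmb10 differed by -0.19 ± 0.0516 and Psmb8 by -0.12 ± 0.0393 (adjusted p = 0.0178 and 0.0483), but the Psmb8 call was lost without any 1 of the 6 libraries and the Psmb10 call without 3. Without WT replicate 1 there were 2 calls, without WT replicate 2, KO replicate 2 or KO replicate 3 there was 1, and without WT replicate 3 there were 7.

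After 4 h of OVA 0 were higher and 5 lower in KO, against 6.22% and 6.35%. Psme2 stood at 229, 228 and 240 CPM in KO against 286, 297 and 276 in WT (log2 -0.30 ± 0.0427, adjusted p = 9.27e-06), and Psme1 at 327, 323 and 329 against 374, 385 and 371 (log2 -0.21 ± 0.0415, adjusted p = 0.000773). Neither gene's libraries overlapped. Psme2b (-0.52 ± 0.0591), Psma4 (-0.18 ± 0.0449) and Psmd10 (-0.15 ± 0.0468) were lower as well, and the Psmd10 call was lost without 4 of the 6 libraries and with total counts.

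At 4 h of Jurkat cells the difference between genotypes was broadest. Here 0 were higher and 25 of 49 lower in KO, against 9.37% and 13.5% of all genes, with a median of -0.11 against -0.01. With total counts 2 were higher and 9 lower and all genes had a median of 0.07, and without KO Jurkat 4 h replicate 2, the library that stands apart from its group, there were 15, with the median still at -0.11. The 10 calls lost without it were Psma3, Psmb1, Psmb4, Psmb7, Psmb8, Psmc3, Psmd4, Psmd8, Psmf1 and Psmg4. The called genes hold 6 of the 7 alpha subunits, 4 of the 7 constitutive beta subunits, all 3 inducible subunits, 2 of 6 ATPases, 4 of 11 other 19S subunits and 3 of 4 activators. Psma5 stood at 113, 112 and 114 CPM in KO against 132, 142 and 139 in WT (log2 -0.29 ± 0.0414, adjusted p = 1.24e-05). Psme4 stood at 173, 163 and 163 CPM against 194, 216 and 199 (log2 -0.29 ± 0.0431, adjusted p = 1.88e-05). In both genes every KO library lay below every WT library.

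The same held for Psmb10, at 228, 209 and 222 CPM in KO against 246, 269 and 283 in WT (log2 -0.28 ± 0.0507, adjusted p = 0.000205), and for Psmb9, at 313, 278 and 308 against 335, 368 and 357 (-0.24 ± 0.0447, adjusted p = 0.000298). Psmb8 was lower by -0.15 ± 0.0393 (adjusted p = 0.00741, or -0.11 and 0.0638 without that library), Psme2 by -0.24 ± 0.0423 and Psme1 by -0.23 ± 0.0413, and Psma4 by -0.26 ± 0.0444. Psmb7 was lower by -0.14 ± 0.0401. Psmb5 (-0.01) and Psmb6 (-0.06) were not called. Calls for Psma4, Psma5, Psmb2, Psmb9, Psmb10, Psme1, Psme2, Psme2b and Psme4 were kept under each alternative and without each library. The total-count fit ended the other 16 calls, Psmb7 and Psmb8 among them.

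Psme2 and Psme2b were called lower in KO in 4 of the 5 conditions and Psmb9 in 3, and 22 of 49 genes were called in none. How often genes outside the family were called over the 5 conditions is not given, so these counts have no background beside them. The 5 conditions use different libraries in both genotypes, though whether they share mice is not given. Interferon-list genes were lower in KO in the same comparisons, 26, 21, 11, 29 and 18 of 30 in the order untreated, OVA and Jurkat at 30 min, OVA and Jurkat at 4 h, with 2 higher in the third. Tap1 was lower in each, from -0.31 to -0.18. Marker lists for other cells also differed: all 7 basophil or mast cell genes and 4 to 7 of 8 stromal genes were higher in KO, and 3 to 8 of 10 plasmacytoid dendritic cell genes were lower and 1 higher. Of 8 markers of conventional dendritic cells type 2, 2 to 6 were higher and at most 1 lower. The basophil sum was 56.6 to 87.6 CPM in untreated KO libraries against 22.3 to 28.6 in WT, and the plasmacytoid sum 2420 to 2610 against 2810 to 2930. Mature dendritic cell markers summed to 523 to 527 CPM against 654 to 697. The plasmacytoid and interferon lists share a gene, so they are not fully separate. At 4 h of Jurkat cells the low T-lineage markers were also lower in KO, as given above. The part of each in the proteasome differences was not tested. Of the partner genes few differed by genotype (0 higher and 0 lower untreated, 1 and 3 at 4 h of Jurkat cells), and 5 of the 10 peptidase and loading genes were lower at 4 h of Jurkat cells.

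**Figure D5:**
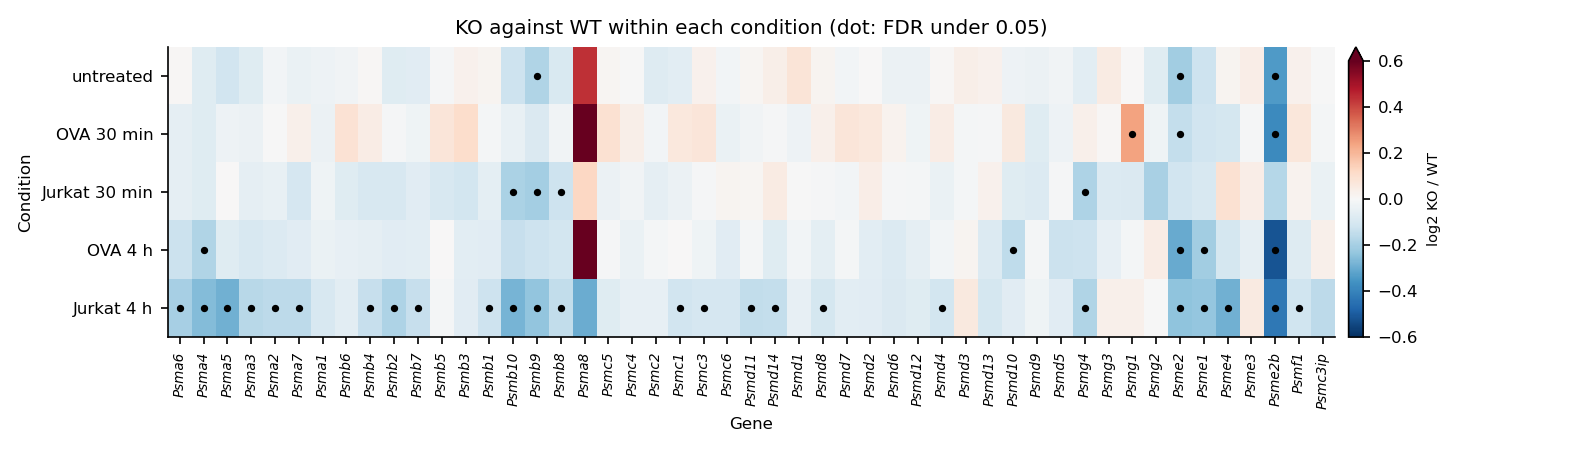
Log2 ratio of KO to WT for each tested gene (columns, by role) in each condition (rows), with a dot where the adjusted p is under 0.05; the colour scale ends at ± 0.6 and Psma8, at very low counts, goes past it. Dots are few in the first 4 rows, where Psme2, Psme2b and Psmb9 recur, and cover 25 of 49 genes at 4 h of Jurkat cells.

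Whether the responses differed between genotypes was tested with interaction terms. For OVA at 30 min no member was called, against 0% higher and 0% lower of all genes. An unadjusted p under 0.05 was reached by 3 of 49 members and 795 of all 14808 genes, and DESeq2 called 0 members. For Jurkat cells at 30 min the count was 0 against 0% and 0.00675%, with 1 at an unadjusted p under 0.05 (1098 of all genes) and 0 by DESeq2. For OVA at 4 h it was 0 against 0% and 0.0405%, with 2 (1098 of all genes) and 0 in the same order. For Jurkat cells at 4 h 0 were higher and 2 lower, against 1.72% and 2.55%, and 17 had an unadjusted p under 0.05 (2823 of all genes).

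Psme4 was the member with the clearest difference in response. It rose by 0.72 ± 0.0433 in WT and by 0.42 ± 0.0432 in KO, a difference of -0.31 ± 0.061 (adjusted p = 0.00394). With total counts the rise in KO was not called. Untreated levels were alike, at 127, 123 and 119 CPM in WT and 128, 122 and 124 in KO, and the groups separate at 4 h. The call of the difference in response was kept under each alternative and without each library. Psmd11 rose by 0.94 ± 0.0308 in WT and by 0.78 ± 0.0307 in KO, a difference of -0.16 ± 0.0433 (adjusted p = 0.0337), and its call was lost without 8 of the 12 libraries. The difference was negative for 43 of the 49 members, with a median of -0.09 against -0.01 for all genes, or -0.03 against 0.05 with total counts, and for the other 47 it did not pass the test. DESeq2 called 6: Psma4, Psma6, Psmd8, Psmd11, Psmd14 and Psme4. The share of all genes that DESeq2 called is not given. Without KO Jurkat 4 h replicate 2 the count of calls was again 2. Among the neighbouring lists 7 of 30 interferon genes responded more in KO and none less, while 2 of 10 peptidase and loading genes, 1 of 30 partner genes and 3 of 25 T-lineage markers responded less and none more.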

How the data were processed

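The authors deposited 1 table of raw gene counts with mm10 intervals, per the file headers. The submitters' processing notes name STAR 2.5, Subread, featureCounts 1.5.0-p1 and DESeq2, without their roles. Neither the annotation nor the strand setting is given in the sources used here. Genes were kept with filterByExpr (14808) and scaled by TMM. Differences were tested with the quasi-likelihood F test of edgeR 4.0.16 (R 4.3.3), with a mean for each of 10 groups over 30 libraries and Benjamini-Hochberg adjusted p under 0.05 over all genes. SE is the size of the log2 fold change over the square root of F. Levels are CPM on TMM-scaled library sizes, and per kb of the longest principal transcript in GENCODE M21 (GRCm38). Promoter windows are from RefSeq (GRCm38.p6).

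The members and lists were chosen with earlier results of these data known. Named genes were the 3 inducible and 3 constitutive catalytic subunits and Psme1 and Psme2 in each comparison, up to 5 called higher and 5 lower by adjusted p, the extremes of level by role, and up to 4 called partners, except that some genes of the partner and interferon lists are not reported here by name. The fit was tested on simulated counts with known changes, for KO against WT untreated and for 4 h of Jurkat cells in WT. Changes of log2 0.2 were recovered in 25.4% and 26.9% of cases, of 0.5 in 94% and of 1 in 100%. Of the calls 5.19% and 3.92% were false. Changes near 0.2 can thus be missed. The simulation used a common dispersion and changed few of the 14808 genes, so it did not test scaling where most genes change. No pair of libraries agreed within sampling noise (chi-square per degree of freedom of 2.36 to 146). Deviations of libraries with the same replicate number correlated above 0.1 in all 3 numbers for KO against WT in untreated cells (0.46, 0.34 and 0.21), for 30 min of Jurkat cells in WT (0.31, 0.14 and 0.31) and for 4 h of OVA in WT (0.37, 0.11 and 0.26), and not in the other 10 pairs of groups. The pairing there comes from these correlations and not from the labels. The replicate block was shared by all 30 libraries, so pairing within those 3 comparisons alone was not modelled. Alternatives were RLE factors, total counts, no filter, a replicate block, the compared libraries alone, DESeq2 1.42.0 and leaving out each library.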

Additional observations from a re-analysis of the deposited data

Results flagged for a closer look

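A test of the difference between genotypes in the response to 4 h of apoptotic Jurkat cells passed for 2 of 49 proteasome genes, both lower in KO, against 2.55% lower and 1.72% higher of all genes. For Psme4, the PA200 activator, the response in KO minus that in WT was -0.31 on the log2 scale. On the TMM scale its level was higher after treatment in 3 of 3 libraries of each genotype. With total counts its rise in KO was not called. For Psmd11, a subunit of the 19S lid, it was -0.16.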

How the results depend on the processing

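With RLE size factors 9 members were called for KO against WT at 4 h of OVA (main count 5). Scaling to total counts gave 11 for KO against WT at 4 h of Jurkat cells (25), 6 for 30 min of Jurkat cells in KO (10) and 1 for the interaction at 4 h of Jurkat cells (2). It turned 1 named log2 fold change, that of Psmb5 between Jurkat cells and OVA at 4 h, to -0.02 from 0.34. Without the filter on low counts 6 were called for 30 min of Jurkat cells in KO, 5 for 4 h of OVA in KO (10) and 1 for the interaction at 4 h of Jurkat cells. The compared libraries alone gave 2 for KO against WT at 30 min of Jurkat cells (4), then 8 and 14 at 4 h of OVA and Jurkat cells, 0 for 30 min of OVA in WT (1), 8 for 30 min of Jurkat cells in WT (21), 5 in KO, 1 for the interaction at 4 h of Jurkat cells, and 15 for Jurkat cells against OVA at 30 min (26). DESeq2 gave 5 for KO against WT in untreated cells (3), 7 at 30 min of Jurkat cells, 9 at 4 h of OVA, 2 for 30 min of OVA in WT, 1 in KO (0) and 6 for the interaction at 4 h of Jurkat cells. The shares of all genes called under these settings are not given, and the causes were not tested.

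With the replicate number as a block shared by all 30 libraries the counts were 3, 3, 4, 6 and 24 for KO against WT in the 5 conditions. They were 22 for 30 min of Jurkat cells in WT, 20 for 4 h of OVA in WT and 3 for the interaction at 4 h of Jurkat cells. It changed the call of 3 named genes, all at 30 min of Jurkat cells in WT.

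Leaving out 1 library gave 2 to 4 for KO against WT in untreated cells, 1 to 2 at 30 min of OVA, 1 to 7 at 30 min of Jurkat cells, 4 to 7 at 4 h of OVA and 15 to 23 at 4 h of Jurkat cells. In WT it gave 0 to 2, 10 to 19, 11 to 22 and 45 to 47 for 30 min of OVA, 30 min of Jurkat cells, 4 h of OVA and 4 h of Jurkat cells. In KO it gave 0 to 1, 3 to 13, 2 to 5 and 44 to 46. For the interaction at 4 h of Jurkat cells it gave 1 to 2, and for Jurkat cells against OVA 15 to 30 at 30 min and 46 to 48 at 4 h. The library left with 2 in its group is assumed to vary like the others. Genes at low counts, such as Psma8, are limited by depth.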
